A study of Homo sapiens with 6 samples.

Results

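The genes described here are YAP1 and 9 genes widely used as readouts of the transcriptional complex that YAP1 forms with TEAD factors, namely CTGF, CYR61, ANKRD1, AXL, F3, FJX1, AJUBA, AMOTL1 and AMOTL2. They were chosen by name. All 10 were found among the 58735 genes measured, and all 10 were among the 14736 genes with enough counts to be tested. Their RNA was measured in MDA-MB-231 cells, an established human line of triple-negative breast cancer (TNBC), which lacks estrogen receptor, progesterone receptor and HER2 amplification. Both groups were cells of this 1 line, labelled wild type in genotype, that were kept for 24 h in serum-containing medium with vehicle (3 samples) or with SCH, the herb Salvia chinensis Benth, at 100 mg/l (3 samples). The labels do not say what the vehicle was, and the design text calls the 3 samples of a group biological repeats. The counts on genes totalled 20291379, 18714240 and 18334857 in the vehicle samples and 16836369, 17979434 and 18414924 in the SCH samples, so that 3 counts, taken as the limit of detection, are worth 0.154 to 0.172 CPM, the unit of a count after scaling every library to the same size.

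YAP and its paralogue TAZ (encoded by WWTR1) are coactivators that do not bind DNA themselves. When the Hippo pathway is off, they enter the nucleus, join TEAD factors on promoters and distant enhancers and raise genes of growth, matrix and the cytoskeleton. When the pathway is on, the kinases MST1 and MST2 (STK4 and STK3) act on LATS1 and LATS2, which phosphorylate YAP and TAZ so that they are held in the cytoplasm or degraded. Because YAP is mainly controlled in this way as a protein, its target RNAs are often used to follow its activity, and MDA-MB-231 cells are known for active YAP and TAZ. RNA levels alone were measured here, with no value for the protein, its location or its binding.

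The sequences before the start of transcription are shown for the 3 genes whose proximal promoters hold more than 1 match to the motifs searched. The TEAD core was spelled CATTCC and the AP-1 motif, bound by the FOS and JUN factors that often act with TEAD, was spelled TGANTCA, in which N is any base. Both strands were searched, and the motifs share no bases in the hits below. Each line gives the 250 bases before the RefSeq start, 5′ to 3′ on the strand of the gene (GRCh38.p14), and capitals mark a match to either motif. The reverse complement of the TEAD core reads GGAATG, and that of the AP-1 motif reads the same as the motif.
CTGF, minus strand, chr6:131951373-131951622: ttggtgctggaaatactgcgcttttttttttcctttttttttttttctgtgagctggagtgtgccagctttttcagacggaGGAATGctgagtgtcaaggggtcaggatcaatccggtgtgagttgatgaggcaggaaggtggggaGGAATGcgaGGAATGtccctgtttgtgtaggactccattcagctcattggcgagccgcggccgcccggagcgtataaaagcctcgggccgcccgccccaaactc
ANKRD1, minus strand, chr10:90921088-90921337: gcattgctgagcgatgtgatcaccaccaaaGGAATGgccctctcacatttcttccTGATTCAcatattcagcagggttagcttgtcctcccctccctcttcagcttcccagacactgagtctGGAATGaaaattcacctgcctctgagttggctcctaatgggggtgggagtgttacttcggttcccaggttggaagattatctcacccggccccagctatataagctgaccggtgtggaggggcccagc
F3, minus strand, chr1:94541760-94542009: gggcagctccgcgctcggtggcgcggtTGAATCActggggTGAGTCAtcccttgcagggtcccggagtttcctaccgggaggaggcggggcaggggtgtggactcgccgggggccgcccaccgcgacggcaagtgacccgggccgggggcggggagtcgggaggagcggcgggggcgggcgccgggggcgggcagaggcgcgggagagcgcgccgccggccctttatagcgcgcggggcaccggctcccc
In CTGF, 3 TEAD cores lie at -169 to -164, -104 to -99 and -95 to -90 from the start. ANKRD1 has 2 TEAD cores, at -220 to -215 and -128 to -123, and 1 AP-1 match between them at -195 to -189. F3 has no TEAD core in this window and 2 AP-1 matches, at -223 to -217 and -210 to -204. The RefSeq table held promoter windows, each of 250 bases before to 50 after the start, for 9 of the 10 genes, all but CYR61. These genes have 12 windows, since AMOTL2, AJUBA and AXL have 2 starts each. A TEAD core was found in 6 of the 12 windows, each of another gene, with 1 match each in YAP1 (-162 to -157) and in an alternative start of AMOTL2 (-69 to -64), AJUBA (-59 to -54) and AXL (-212 to -207). An AP-1 match was found in 2 of the 12. Over all 35116 promoter windows of the table, 14.0% hold a TEAD core, 1.37% hold 2 or more and 0.128% hold 3 or more, while 7.71% hold an AP-1 match and 0.515% hold 2 or more. Counted by gene, with any window of a gene, 16.7% of 27305 genes have a TEAD core and 9.37% an AP-1 match. A match is only a run of letters, and TEAD binding far from the start is not covered by these windows. AMOTL1 and FJX1 have neither motif in their windows. By position the genes share little, since YAP1, AMOTL1 and FJX1 are on chromosome 11, CYR61 and F3 on chromosome 1 and the others each on a chromosome of their own. They span from 2.45 kb (FJX1) to 170.3 kb (AMOTL1).

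The 10 genes did not move together. Of them, 7 were lowered by SCH, 2 were raised and 1 did not pass the test (edgeR's quasi-likelihood test, adjusted p under 0.05 over all tested genes). The lowered genes were F3, FJX1, AXL, ANKRD1, AJUBA, CYR61 and YAP1, with the mean CPM in SCH at 35.9% to 86.8% of that in vehicle. The raised genes were CTGF, at 154% of vehicle, and AMOTL1, at 138%. AMOTL2 was at 100.4% of vehicle. The median log2 fold change of the 10 was -0.36, beside -0.0035 over all tested genes. The treatment moved much of the transcriptome, and these counts are read against that background: 58.7% of all tested genes passed the same test, 29.3% as raised and 29.4% as lowered. An absolute log2 fold change of at least 1 was reached by 2 of the 10 (F3 and FJX1), and, together with a call, by 8.77% of all tested genes. The 3 samples of a group did not overlap those of the other in CPM for 9 of the 10 genes, against 62.4% of all tested genes. With scaling by library size alone, the share of calls in the raised direction over all genes was 62.62% in place of 49.92%, and 6 of the 10 genes were lowered in place of 7. These are bulk samples, in which fewer cells of a kind and less RNA per cell cannot be told apart.

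**Figure D1:**
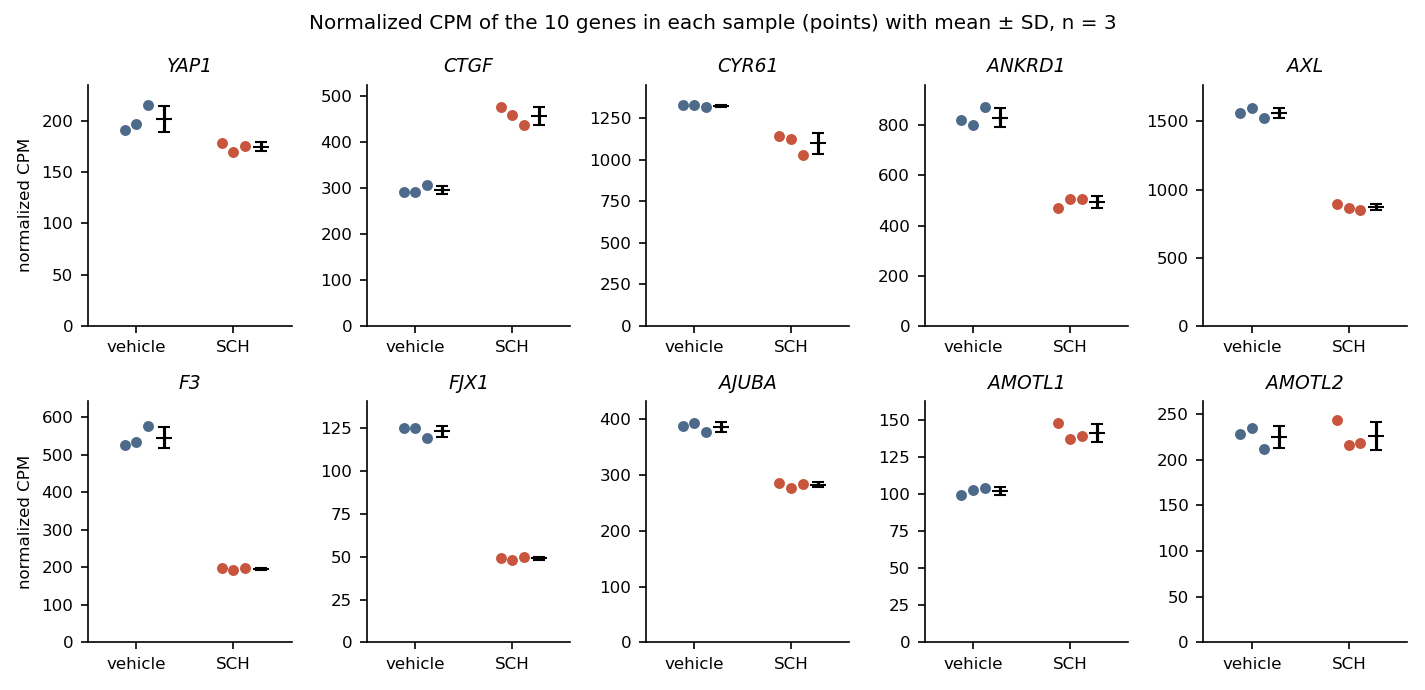
Normalized CPM (y axis, from 0) of each of the 10 genes in the 3 vehicle samples (blue points) and the 3 SCH samples (red points), with the mean ± SD (black) beside them. The points of the 2 groups are apart in 9 panels, and in AMOTL2 they overlap.

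F3 encodes tissue factor, the cell surface receptor for factor VII that starts blood coagulation, and lies at chr1:94529225-94541800 on the minus strand (GRCh38, as for all gene positions here). Its normalized CPM was 525.8, 535 and 577 in the vehicle samples and 198, 192 and 198 in the SCH samples. Every SCH sample was far below every vehicle sample, and the 3 SCH samples lay close together. With n = 3 in each group, the mean ± SD was 546 ± 27.1 CPM in vehicle and 196 ± 3.31 CPM in SCH, and edgeR gave a log2 fold change of -1.48 with a standard error of 0.049 (adjusted p = 5.4156e-17). This was the greatest change among the 10 genes.

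FJX1 encodes four-jointed box kinase 1, the human relative of a fly kinase that acts on the large cadherins Fat and Dachsous upstream of Hippo, and is a single short gene at chr11:35618419-35620868. Its CPM was 125, 125.5 and 119.7 in vehicle and 49.1, 48.3 and 50.003 in SCH. The groups did not overlap, and the spread within each was small beside the gap of 69.7 CPM between them. The mean fell from 123 ± 3.24 to 49.2 ± 0.847 CPM, with a log2 fold change of -1.33 (standard error 0.055, edgeR adjusted p = 2.602e-15).

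AXL, at chr19:41219203-41261766, encodes a receptor tyrosine kinase of the TAM family that is bound by GAS6 and is known in TNBC for its part in invasion and drug resistance. Its CPM was 1559, 1601 and 1525 in vehicle and 894, 865 and 850.5 in SCH. The highest SCH value was 631 CPM below the lowest vehicle value. The mean went from 1562 ± 38.4 to 869.7 ± 22.3 CPM (log2 fold change -0.84, standard error 0.045, edgeR adjusted p = 2.5242e-13).

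ANKRD1, at chr10:90912096-90921276 on the minus strand, encodes an ankyrin repeat protein of nucleus and sarcomere that is among the most used YAP readouts. The vehicle samples held 819.95, 800.2 and 871 CPM and the SCH samples 469, 506 and 508 CPM. The gap between the groups, 293 CPM, was wider than the range within either of them. The mean went from 831 ± 36.8 to 494 ± 22.2 CPM (log2 fold change -0.75, standard error 0.049, edgeR adjusted p = 7.3893e-12).

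AJUBA, at chr14:22971174-22982642 on the minus strand, encodes a LIM domain protein of cell junctions that can bind LATS kinases and hold them inactive. Its CPM was 387, 393 and 376 in vehicle against 285, 277 and 284 in SCH, with no overlap. The mean was 385 ± 8.59 in vehicle and 282 ± 4.39 in SCH (log2 fold change -0.45, standard error 0.046, edgeR adjusted p = 1.1812e-08).

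CTGF and CYR61 encode secreted matricellular proteins of the CCN family, which bind integrins, and are the readouts of YAP measured most often. They went in opposite directions. CTGF (also named CCN2), at chr6:131948176-131951373 on the minus strand, had 292, 290.2 and 306 CPM in vehicle and 475.5, 459 and 437 CPM in SCH. Every SCH sample was above every vehicle sample, and the mean went from 296 ± 8.56 to 457 ± 19.4 CPM (log2 fold change 0.63, standard error 0.048, edgeR adjusted p = 1.1147e-10). CYR61 (also named CCN1), at chr1:85580761-85583962, had 1329.9, 1328 and 1319.5 CPM in vehicle and 1143, 1124 and 1029.97 CPM in SCH. Every SCH sample was below every vehicle sample, and SCH replicate 3 was the lowest of all. The mean of CYR61 went from 1326 ± 5.53 to 1099 ± 60.5 CPM (log2 fold change -0.27, standard error 0.047, edgeR adjusted p = 3.2331e-05), and by library size alone the log2 fold change of CYR61 was -0.17, still past the threshold.

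AMOTL1 and AMOTL2 encode angiomotin-like proteins, which bind YAP at junctions and on actin and hold it out of the nucleus, and which YAP in turn can induce. AMOTL1, at chr11:94706431-94876753, had 99.7, 103 and 104.5 CPM in vehicle and 149, 137 and 139 CPM in SCH. The groups were apart, and the mean went from 102 ± 2.49 to 142 ± 6.06 CPM (log2 fold change 0.47, standard error 0.052, edgeR adjusted p = 5.4908e-08). AMOTL2, at chr3:134355874-134375479 on the minus strand, had 228, 235 and 212 CPM in vehicle and 243, 216 and 219 CPM in SCH. The groups overlapped, since vehicle replicates 1 and 2 were above SCH replicates 2 and 3 while SCH replicate 1 was the highest of all. Its mean was 225 ± 11.7 CPM in vehicle and 226 ± 14.98 in SCH, with a log2 fold change of 0.0055 (standard error 0.054, edgeR adjusted p = 0.93896), and the sign of this value turned to -0.027 under upper quartile normalization. That p does not show that the level was equal.

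YAP1 itself, at chr11:102110461-102233423, had 191, 197 and 216 CPM in vehicle and 179, 169.9 and 175 CPM in SCH. The SCH samples were all below the vehicle samples, by a gap of 12.5 CPM between the nearest values, which is narrower than the range within vehicle. The mean went from 201 ± 12.7 to 175 ± 4.49 CPM (log2 fold change -0.20, standard error 0.052, edgeR adjusted p = 0.0017642). The call depends on the scaling: by library size alone the log2 fold change was -0.10 and edgeR's adjusted p was 0.1004.

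Levels can be set side by side between genes only per length, for which the deposited FPKM values (fragments scaled by gene length and by sample) were used. In the vehicle samples the order of mean FPKM was CYR61 (522), ANKRD1 (406), AXL (293), F3 (184), CTGF (122), AJUBA (62.3), FJX1 (48.7), AMOTL2 (36.4), YAP1 (30.9) and AMOTL1 (9.86). These are high levels for this line, since CYR61 stood at the 99.66th percentile of all tested genes and AMOTL1, the lowest, at the 68.1st. In SCH the order was CYR61 (435), ANKRD1 (242), CTGF (190), AXL (164), F3 (66.3), AJUBA (45.8), AMOTL2 (36.7), YAP1 (26.9), FJX1 (19.5) and AMOTL1 (13.7). CTGF moved from the fifth place to the third, past AXL and F3, and FJX1 from the seventh to the ninth, past AMOTL2 and YAP1. Between each pair of neighbours in either order, all 3 samples of the group gave the same order and the ranges of FPKM did not overlap. The closest neighbours were AMOTL2 and YAP1 in vehicle, at a ratio of 1.176, and CTGF and AXL in SCH, at 1.158. CYR61 and ANKRD1 stayed the most abundant and AMOTL1 the least in both groups.

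**Figure D2:**
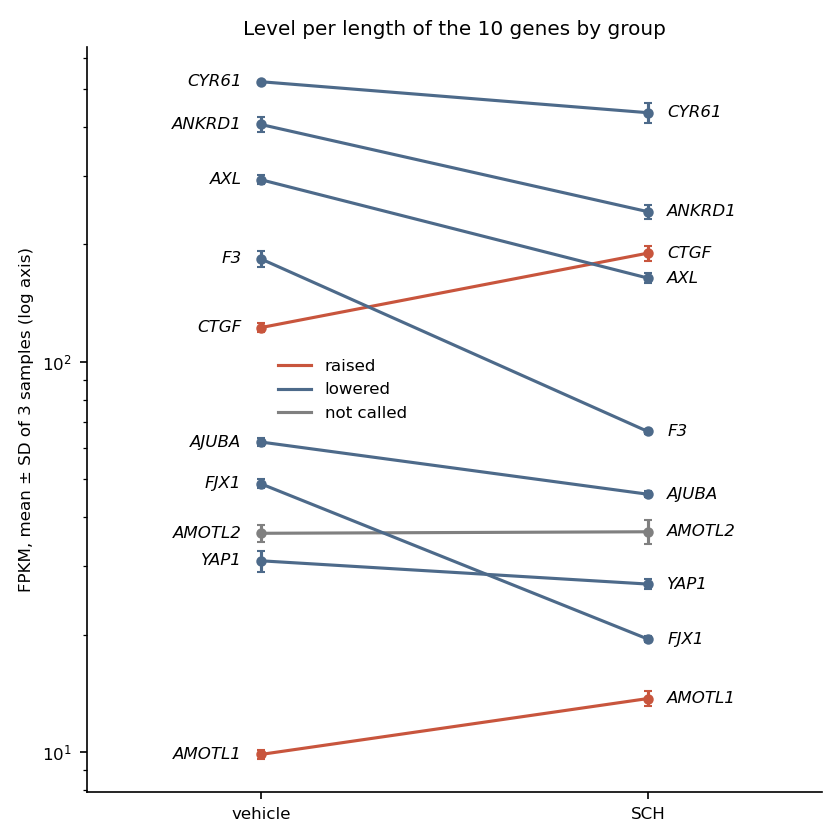
Mean FPKM ± SD of 3 samples (log axis) for each of the 10 genes in vehicle (left) and SCH (right), with a line joining the means, colored by the edgeR call. The lines of CTGF and FJX1 cross their neighbours, with CTGF going from 122 to 190 and FJX1 from 48.7 to 19.5 FPKM.

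A ratio of 2 genes within a sample does not depend on how the samples are scaled, and 3 such ratios were compared. The FPKM ratio of CTGF to CYR61 was 0.231, 0.229 and 0.243 in vehicle and 0.437, 0.429 and 0.445 in SCH. The groups were apart, with a difference of 0.90 in log2 ratio (standard error 0.031). The ratio of AMOTL2 to AMOTL1 was 3.84, 3.82 and 3.40 in vehicle and 2.75, 2.64 and 2.63 in SCH, a log2 difference of -0.46 (standard error 0.061). The ratio of YAP1 to WWTR1, the gene of TAZ, was 3.86, 4.29 and 4.08 in vehicle and 3.50, 3.03 and 3.28 in SCH, a log2 difference of -0.32 (standard error 0.075). For each of the 3, the exact two-sided permutation test gave p = 0.1, which is the smallest it can give for 3 samples against 3 and is also the value adjusted over the 3 ratios, so that this test cannot reach the threshold of 0.05 with 3 samples a group. Relative to its partner, CTGF was higher in SCH in every sample, and AMOTL2 and YAP1 were lower.

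**Figure D3:**
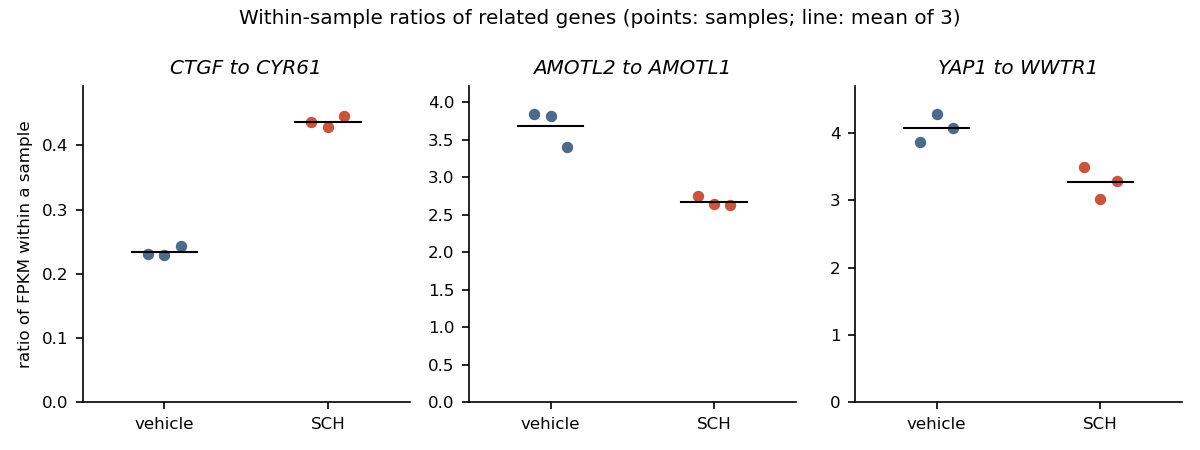
Ratio of FPKM within a sample (y axis, from 0) for CTGF to CYR61, AMOTL2 to AMOTL1 and YAP1 to WWTR1, with 1 point per sample and a line at the mean of 3. The SCH points of CTGF to CYR61 lie between 0.429 and 0.445, above all vehicle points, and those of the other pairs lie below the vehicle points.

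A second list, of 15 genes also known as YAP-TEAD targets, also moved both ways. Of the 15, 8 were lowered, 4 were raised and 3 did not pass the test, with a median log2 fold change of -0.35. As for every list below, these counts stand beside 29.3% of all tested genes raised, 29.4% lowered and 58.7% called in either direction. RBMS3, an RNA-binding protein gene at chr3:28574791-30010391, had 21.9, 23.2 and 24.1 CPM in vehicle and 5.39, 6.98 and 6.89 CPM in SCH. Its log2 fold change of -1.84 (standard error 0.11, edgeR adjusted p = 9.9944e-13) was the most negative of the 15 in this fit, but on the log2(FPKM + 1) scale it was -0.73, since its FPKM is low. TGFB2, the gene of a secreted TGF-beta ligand at chr1:218346235-218444619, had 51.8, 50.02 and 60.2 CPM in vehicle and 17.1, 19.7 and 17.8 CPM in SCH, with the log2 fold change at -1.57 (standard error 0.081, edgeR adjusted p = 1.5078e-13). For TGFB2, 26.62% of the exonic bases are shared with the transcript TGFB2-OT1 on the same strand, so its counts are less certain. In both genes the SCH samples were all under the vehicle samples.

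The other lowered targets of this list were CRIM1, which encodes a membrane protein that binds BMPs (log2 fold change -0.91), FOXF2, a forkhead factor (-0.75), NT5E, the ectonucleotidase CD73 (-0.59), CCDC80 (-0.51), ASAP1, an ARF GTPase-activating protein (-0.43), and MYOF, myoferlin, a protein of membrane repair (-0.35). NT5E was the most abundant per length, at a mean of 142 FPKM in vehicle and 94.7 FPKM in SCH. The raised targets were GADD45A, a gene of growth arrest and DNA damage, IGFBP3, a secreted binding protein of insulin-like growth factors, LATS2, the YAP kinase that YAP itself induces, and ARHGEF17. GADD45A had 111, 104 and 94.2 CPM in vehicle and 207, 182 and 158 CPM in SCH, with the log2 fold change at 0.82 (standard error 0.074, edgeR adjusted p = 1.6381e-09). IGFBP3 had 73.4, 76.1 and 74.8 CPM in vehicle and 120.5, 118 and 124 CPM in SCH, with the log2 fold change at 0.69 (standard error 0.053, edgeR adjusted p = 9.0079e-11). In both genes the groups were apart. The log2 fold change was 0.36 for LATS2 and 0.17 for ARHGEF17, and the call on ARHGEF17 was lost in 6 of 15 alternative settings. With 1 replicate left out, ARHGEF17 ran from 0.09 to 0.246. DOCK5 (-0.045), PTPN14 (0.11) and NUAK2 (-0.010) did not pass, and PTPN14 gained a call in 3 of 15 alternative settings. Of the 15, 10 had a promoter window, in which a TEAD core was found for 5 and an AP-1 match for none.

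**Figure D4:**
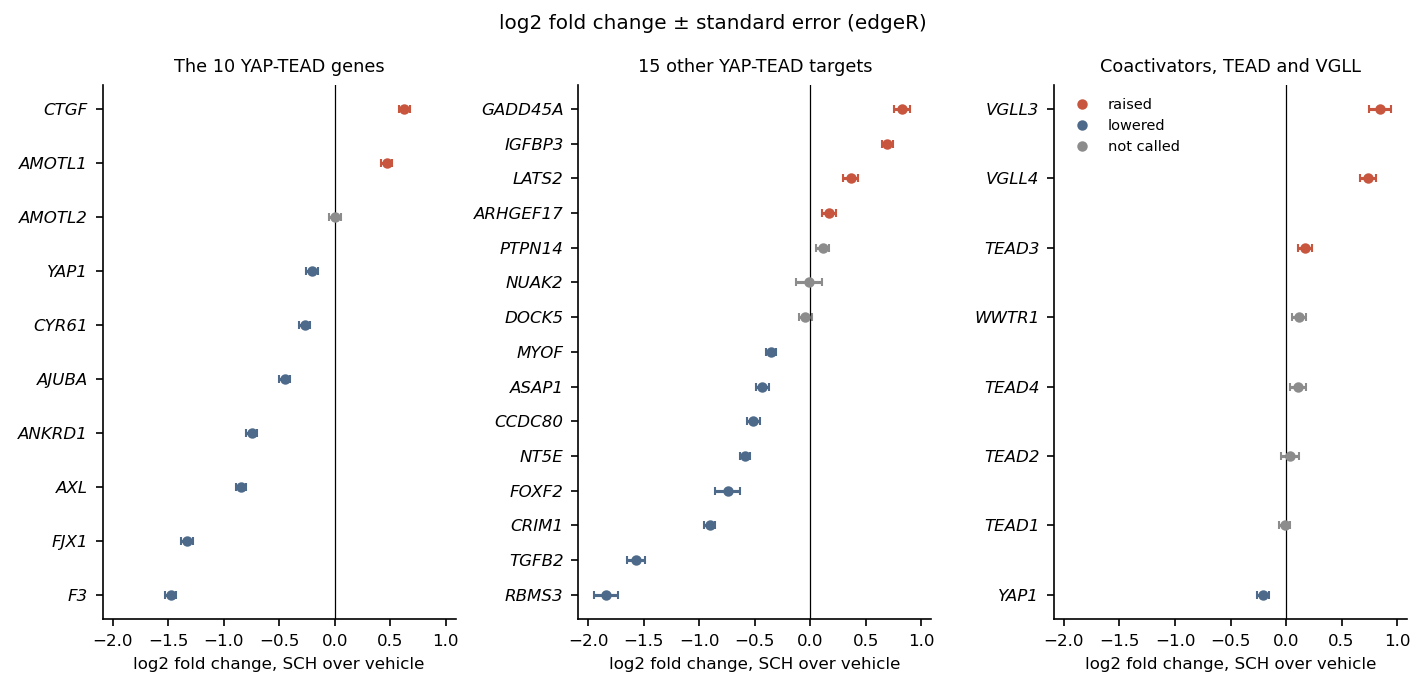
Log2 fold change of SCH over vehicle ± standard error (x axis, edgeR) for the 10 genes, the 15 other YAP-TEAD targets and the tested coactivator, TEAD and VGLL genes, colored by call. In the first panel values run from -1.48 (F3) to 0.63 (CTGF), and in the second from -1.84 (RBMS3) to 0.82 (GADD45A).

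Of 10 coactivator and TEAD genes, 8 were tested, of which 3 were raised, YAP1 was lowered and 4 did not pass, a share of calls under the 58.7% of all tested genes. WWTR1, at chr3:149517235-149736714 on the minus strand, had 66.2, 61.5 and 70.6 CPM in vehicle and 68.2, 75.0 and 71.5 CPM in SCH, with overlapping groups (log2 fold change 0.11, standard error 0.062, edgeR adjusted p = 0.11707) and a call in 2 of 15 alternative settings. TEAD1 was the most abundant TEAD gene per length, at a mean of 25.3 FPKM in vehicle and 25.2 FPKM in SCH, and its log2 fold change was -0.013. The log2 fold change was 0.035 for TEAD2 and 0.11 for TEAD4, neither of which passed, although TEAD4 did in 1 alternative setting, and 0.17 for TEAD3, which passed but lost its call in 5 of 15 alternative settings. The remaining raised genes encode vestigial-like proteins, which bind TEAD factors themselves. VGLL3 had 9.59, 11.2 and 9.67 CPM in vehicle and 18.4, 17.9 and 18.5 CPM in SCH (log2 fold change 0.85, standard error 0.097, edgeR adjusted p = 8.7749e-08). On the log2(FPKM + 1) scale VGLL3 was at 0.435, still called. VGLL4, which is known to act against YAP on TEAD, had 21.1, 22.3 and 22.6 CPM in vehicle and 36.6, 37.0 and 36.4 CPM in SCH (log2 fold change 0.74, standard error 0.071, edgeR adjusted p = 5.9407e-09). Every SCH sample was above every vehicle sample in both, and 23.7% of the exonic bases of VGLL4 overlap other genes on the opposite strand. VGLL1 and VGLL2 had 0 counts in all 6 samples.

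Of 11 genes of the core kinase cascade, 8 were raised, 1 was lowered and 2 did not pass, with a median log2 fold change of 0.22, beside 29.3% of all tested genes raised and 29.4% lowered. This list holds MAP4K4 and the TAOK kinases beside the MST, LATS, MOB1 and SAV1 genes. LATS2 is counted as raised both here and among the other YAP-TEAD targets, so the lists are not independent. MOB1B, an adaptor of the LATS kinases, went from a mean of 4.44 to 7.20 FPKM (log2 fold change 0.69), and SAV1, the scaffold of the MST kinases, from 10.9 to 15.3 FPKM (0.48), where 14.92% of the exonic bases of SAV1 overlap ATL1 on the opposite strand. The paralogue MOB1A was the lowered gene, from 20.4 to 17.1 FPKM (-0.26). By library size alone MOB1A was at -0.156, still called. In the list of YAP degradation and the STRIPAK phosphatase, which removes phosphate from the MST kinases, 8 of 14 were raised, 1 was lowered and 5 did not pass, with a median of 0.16. STRN, a scaffold of STRIPAK, was raised by 0.54 and FGFR1OP2, another of its subunits, by 0.38. PPP2CA, the catalytic subunit of PP2A, was lowered by 0.24, and by library size alone its log2 fold change was -0.141, still called.

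Of 23 regulators at the membrane and at junctions, 22 were tested, with 4 raised, 8 lowered and 10 that did not pass, and a median of 0.015. Leaving out AJUBA, AMOTL1, AMOTL2 and FJX1, which belong to both lists, 3 of 18 were raised, 6 were lowered and 9 did not pass. With or without them, the share called in either direction was under the 58.7% of all tested genes. By direction, the share lowered was above the 29.4% of all tested genes and the share raised was under the 29.3%. PTPN14, which did not pass, is also counted among the other YAP-TEAD targets above. WWC1, or KIBRA, which activates LATS together with merlin, had 133.7, 131 and 133.4 CPM in vehicle and 76.4, 73.0 and 71.4 CPM in SCH, with the groups apart (log2 fold change -0.85, standard error 0.053, edgeR adjusted p = 2.976e-12). WTIP, a LIM protein related to AJUBA, was raised by 0.41, and its call was lost in 1 of 15 alternative settings. On the log2(FPKM + 1) scale WTIP was at 0.175, still called. NF2, the gene of merlin, named here after its values were seen, had 17.6, 18.6 and 18.7 CPM in vehicle and 9.46, 10.5 and 12.2 CPM in SCH, so that every SCH sample was lower (log2 fold change -0.77, standard error 0.10, edgeR adjusted p = 7.0808e-07). On the log2(FPKM + 1) scale NF2 was at -0.503, still called. Whether these cells make working merlin was not measured, so the fall in NF2 is one of RNA only. AMOT, the angiomotin gene itself, also named after its values were seen, had 2, 2 and 1 counts in vehicle and 11, 10 and 20 counts in SCH, so that vehicle was at or under the limit of 3 counts. Per length, AMOTL2 and AMOTL1 made up nearly all of the angiomotin family RNA in this line.

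**Figure D5:**
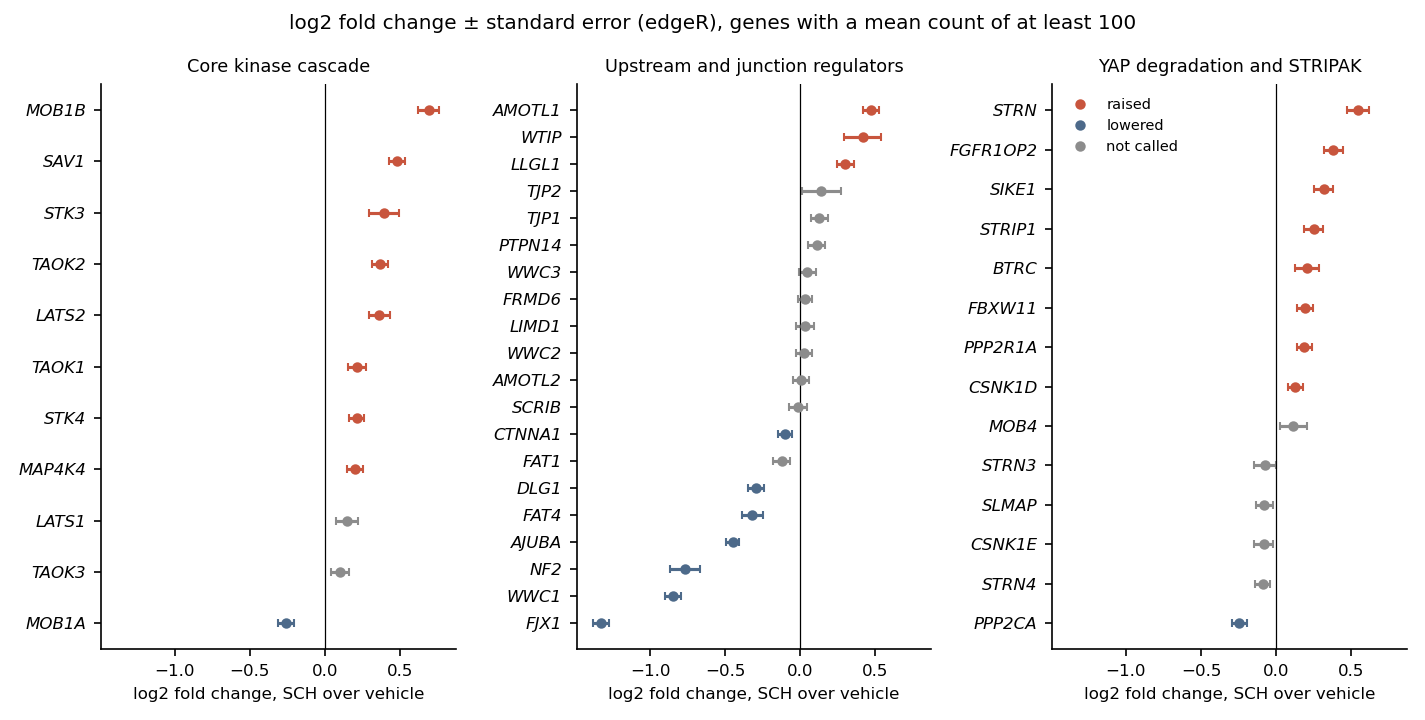
Log2 fold change of SCH over vehicle ± standard error (x axis, edgeR) for genes of the Hippo pathway with a mean count of at least 100, in 3 lists and colored by call. The core kinase genes lie to the right of 0 apart from MOB1A (-0.26), while junction regulators lie on both sides, from FJX1 (-1.33) to AMOTL1 (0.47).

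Several of the 10 genes belong to families or pathways of their own, which were looked at for the other members. In the CCN family, 3 of 6 genes were tested, and NOV (CCN3) was lowered beside CYR61, from 46.8, 46.6 and 52.6 CPM to 28.5, 27.5 and 31.5 CPM (log2 fold change -0.74, standard error 0.073, edgeR adjusted p = 8.2835e-09). Per length, NOV was at a mean of 17.6 FPKM in vehicle, well under CTGF and CYR61, and WISP1 had 0 counts in all samples. CTGF was the only tested gene of the family that was raised.

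Among the TAM receptors and their ligands, AXL was by far the most abundant receptor, at 293 FPKM in vehicle against 5.89 FPKM for MERTK and 3.18 FPKM for TYRO3. GAS6, the ligand of AXL, at chr13:113820549-113864067 on the minus strand, had 336, 345 and 311 CPM in vehicle and 183, 174 and 175 CPM in SCH. The groups were apart, and the log2 fold change of GAS6 was -0.90 (standard error 0.051, edgeR adjusted p = 5.8358e-13), so that receptor and ligand RNA were both lowered. MERTK (0.16) and TYRO3 (-0.15) did not pass but gained a call in 3 and 2 of 15 alternative settings. PROS1, the other ligand, rose by 0.17 with a call that was lost in 6 of 15 alternative settings.

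Around tissue factor, all 7 genes tested passed, 5 of them lowered and 2 raised, beside 58.7% of all tested genes called, with a median of -0.55. F2R, the thrombin receptor PAR1, was lowered from 56.8, 57.7 and 62.0 CPM to 32.2, 33.1 and 31.4 CPM (log2 fold change -0.87, standard error 0.065, edgeR adjusted p = 7.3038e-11). TFPI2, an inhibitor of serine proteases, went from 68.4, 70.3 and 70.3 CPM to 193.5, 220.1 and 211 CPM (log2 fold change 1.58, standard error 0.056, edgeR adjusted p = 1.4618e-16). PROCR, the endothelial protein C receptor, was raised by 0.52. F3 and TFPI2 thus lay at the lowest and the highest end of this list. The inhibitors did not move together, since TFPI was lowered, from a mean of 82.8 CPM in vehicle to 67.0 CPM in SCH. Its log2 fold change was -0.30 (standard error 0.073, edgeR adjusted p = 0.001015). F2RL1 (-0.75) and THBD (-0.55) were also lowered.

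Genes of the SRF-MRTF pathway, which responds to actin and shares targets with YAP, were lowered in 9 cases, raised in 3 and not called in 4 of 16 tested, with a median of -0.24. ACTB, beta-actin, went from a mean of 1220.4 to 711 FPKM (log2 fold change -0.79), and CNN2, calponin 2, from 58.7 to 41.8 FPKM (-0.50). ACTB has many near-identical copies in the genome, between which reads may be split. FILIP1L (0.38) and TPM2 (0.35) were raised, and the call on TPM2 was lost in 3 of 15 alternative settings.

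The identity of the line was checked on marker genes. Of 8 markers of mesenchymal TNBC lines, 7 had a mean of over 3 counts, led by VIM per length, and the exception was SPARC, with 1 or 2 counts in each sample. Their summed level was 3598, 3647 and 3629 CPM in vehicle and 3166, 3210.4 and 3212 CPM in SCH. Of 7 luminal markers, 6 had a mean of over 3 counts, while ESR1 had 1 to 4 counts, CDH1 1 to 6 and PGR 0 or 1. The list summed to 108, 108 and 104 CPM in vehicle and 125, 112 and 113 CPM in SCH, most of it ERBB2. Of the 4 luminal markers tested, ERBB2 (log2 fold change 0.29) and FOXA1 (1.16) were raised, and GATA3 (-0.79) and EPCAM (-0.52) were lowered. Of 5 leukocyte markers, 2 had a mean of over 3 counts, CD14 and PTPRC. The list summed to 2.82, 3.34 and 2.36 CPM in vehicle and 1.26, 1.72 and 1.16 CPM in SCH, with CD3E at 0 or 1 count. PTPRC was lowered by SCH, from 39, 37 and 34 counts to 4, 9 and 3 counts. CD14 did not pass (log2 fold change 0.27, edgeR adjusted p = 0.54424). Of 5 endothelial markers, 3 had a mean of over 3 counts, and the list summed to 8.46, 10.5 and 9.90 CPM in vehicle and 8.20, 7.84 and 8.78 CPM in SCH, most of it KDR, with CDH5 at 0 counts in 5 of 6 samples. The mesenchymal, luminal and leukocyte sums moved with the treatment, but the members of these lists did not all move as their sums did. Of 7 mesenchymal markers tested, 2 were raised, 3 were lowered and 2 did not pass. Their median log2 fold change was 0.033, with VIM, the most abundant, at -0.56. The median of the luminal markers was -0.11. The part of these markers in the results on the YAP-TEAD genes was not tested.

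The library kit named in the methods does not mark strand, so reads of overlapping genes cannot be told apart. CYR61, ANKRD1, F3 and FJX1 share no exonic base with another gene of GENCODE 29. The share was 9.97% of the exonic bases for YAP1, 8.34% for CTGF, 4.94% for AMOTL1, 3.12% for AMOTL2, 1.3% for AXL and 0.84% for AJUBA. The overlapping genes had 0 to 3 counts, apart from AC011510.1 beside AXL, with 16 to 31 counts. Mitochondrial genes held 3.53%, 3.40% and 3.55% of the counts in vehicle and 3.001%, 3.42% and 3.53% in SCH, with SCH replicate 1 the lowest.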

How the data were processed

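RNA of 6 samples, 3 per group, was purified with poly-T beads and sequenced on an Illumina HiSeq instrument. The submitters' processing notes name CASAVA 1.8, HISAT2 2.0.5, featureCounts 1.5.0-p3 and DESeq2 1.20.0, and the build GRCh38. The authors deposited gene-level read counts as counted and also FPKM, which a check showed to be the count over gene length times a factor of the sample (0.9369 to 1.008 relative to the total count). All sample columns were used.

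SCH was tested against vehicle on the counts by edgeR 4.0.16 in R 4.3.3 (TMM, filterByExpr, glmQLFit and glmQLFTest, no covariates, Benjamini-Hochberg adjustment over the 14736 genes tested, threshold 0.05). The standard error is |log2 fold change| over the square root of F. CPM are TMM-normalized. The common biological coefficient of variation was 5.17%. No libraries were copies: chi-square over its degrees of freedom was 2.12 to 5.75 between samples of a group. Ratios were tested by exact permutation in SciPy 1.17.1. Alternatives were RLE, library size and upper quartile scaling, a filter of none or of 10 counts per sample, limma 3.58.1 on log2(FPKM + 1) and log2(FPKM + 0.1), DESeq2 1.42.0, a block for the replicate number, leaving out 1 replicate, and an absolute log2 fold change of at least 1. The scripts were tested on simulated data.

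The 10 genes, the lists, drawn from general knowledge, and the tests were chosen with earlier results of these data known. Named were the 10 genes, every tested gene among the other targets and the coactivators and TEAD factors, the CCN and TAM genes by level, and from each remaining list the 2 raised and 2 lowered genes with the greatest change among those that averaged at least 100 counts with groups apart. Outside this rule, NF2, AMOT, TFPI, F2RL1, THBD and the cell type markers, PTPRC among them, were also named. MAP4K4 and the TAOK kinases were named without values. Gene overlaps are from GENCODE 29 and promoters from RefSeq (GRCh38.p14). Counting intervals and the limit of 3 counts cover counting error only.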

Additional observations from a re-analysis of the deposited data

How the results depend on the processing

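Over 15 alternative settings, neither the direction nor the call changed for 8 of the 10 YAP-TEAD genes, the exceptions being AMOTL2 and YAP1. The same held for 30 of the 45 other named genes run through them, with 14 settings for AMOT and PTPRC. TFPI, F2RL1, THBD and the cell type markers other than PTPRC were not run through these settings. Requiring an absolute log2 fold change of at least 1 left 1292 of 8650 genes and 2 of the 10 YAP-TEAD genes. With scaling by library size only, the median of the 10 genes was -0.258 and YAP1 had -0.102 (no longer past the threshold), while the median of all genes went from -0.003 to 0.099. CYR61 (-0.168), MOB1A (-0.156) and PPP2CA (-0.141) were nearer to 0 but kept their calls. Under the same scaling DOCK5 turned to 0.057, NUAK2 to 0.093 and TEAD1 to 0.09. On log2(FPKM + 1), which holds low genes near 0, RBMS3 was at -0.726, VGLL3 at 0.435, WTIP at 0.175 and NF2 at -0.503, all called, and AMOT lost its call. Upper quartile normalization gave a median of -0.394 for the 10 genes and -0.027 for AMOTL2. Without a filter on low counts NUAK2 was at 0.007 and TEAD1 at 0.005, and with DESeq2 at 0.002 and 0.001. The sign of TEAD2 also turned, to -0.033, without vehicle replicate 3. The cause of the changes of sign in DOCK5, NUAK2, TEAD1, TEAD2 and AMOTL2 was not tested. None of these genes passed the test under any of the 15 settings. With 1 replicate left out, the log2 fold change ran from -0.044 to 0.045 for AMOTL2, from -0.081 to 0.011 for DOCK5, from -0.129 to 0.09 for NUAK2, from -0.044 to 0.027 for TEAD1 and from -0.033 to 0.097 for TEAD2, the median of the 10 genes ran from -0.373 to -0.33, and the calls over all genes from 7809 to 8489. In the same fits the log2 fold change ran from 0.09 to 0.246 for ARHGEF17, from 0.052 to 0.174 for PTPN14 and from 0.069 to 0.166 for WWTR1. DESeq2 called 7532 genes. With the replicate number as a block, 8705 genes were called and 9 of the 10 YAP-TEAD genes, as without it. Same-numbered samples did not deviate together (correlations of 0.0464, -0.0222 and 0.022), so the numbers are taken as names only. The depth leaves VGLL1, VGLL2, AMOT and the lesser CCN genes at or near the limit of 3 counts in at least 1 group.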
